A study of Arabidopsis thaliana with 12 samples.

Results

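WRKY proteins are plant transcription factors, and the results concern 52 Arabidopsis thaliana genes of this family, taken by their gene identifiers from the 3 deposited comparison tables of 31788 loci each. All 52 identifiers were found. The tables name 46 of them alone on their row, which is called their own locus here, and 6 (WRKY1, WRKY25, WRKY26, WRKY32, WRKY45 and WRKY60) share a row with other genes and were kept out of the counts of tested and called genes. The merged region of 8 of the 46 also holds a neighbour with a row of its own. RNA was sequenced from whole seedlings grown for 14 days under long days, in 4 genotypes: wild type (WT) and the mutants pkl, clf and lhp1, with 3 libraries each by their titles. The sources used here name neither the mutant alleles nor the number of lines in a group. PKL is a CHD3-type chromatin remodeller, CLF a Polycomb methyltransferase for the histone mark H3K27me3, and LHP1 a chromodomain protein that binds this mark. Nothing in the labels says that the 3 libraries of a group are separate growth batches, so the spread behind the authors' test may be technical.

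A WRKY protein carries the DNA-binding WRKY domain, in which a conserved heptapeptide that begins with the letters of the family name is followed by a zinc finger. The domain binds the W-box, TTGACC or TTGACT, in target promoters, many of which belong to defence genes and to WRKY genes themselves. In leaves and seedlings the family is best known for immune responses to salicylic acid and microbial signals, and also for senescence, trichomes and nutrient supply. Structural group I proteins have a pair of domains, group II proteins have 1 domain and fall into subgroups IIa to IIe, and group III proteins have 1 domain with a different zinc finger.

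Reading the annotated coding sequences of TAIR10.1 (RefSeq) showed these classes among the 52 genes. In 11 genes the heptapeptide was found at 2 places and in 41 at 1, the latter including WRKY23 and WRKY45, which the annotation places in group I. Here WRKY23 was counted with group IIc by its single domain, and WRKY45, in a shared locus, entered no count of calls. The 9 group III genes carried a C2HC zinc finger and 42 genes a C2H2 finger, and no finger matched the search in WRKY36. The 21 bases that encode the heptapeptide are shown for the 5 group III genes called lower in pkl seedlings and for a pair with a changed heptapeptide. Capitals mark the sixth codon, which encodes glutamine in 50 of the 52 genes and lysine in WRKY50 and WRKY51.
WRKY70 (chr3:20909760-20909780, minus strand): tggaggaaatatggaCAAaag
WRKY54 (chr2:17001378-17001398, minus strand): tggaggaaatatggaCAAaag
WRKY38 (chr5:7496202-7496222, minus strand): tggaggaaatatggtCAAaag
WRKY62 (chr5:351565-351585, minus strand): tggaggaaatacggaCAAaag
WRKY30 (chr5:8154180-8154200, minus strand): tggagaaagtacggcCAGaag
WRKY50 (chr5:9147579-9147599, minus strand): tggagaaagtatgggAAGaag
WRKY51 (chr5:25908864-25908884, plus strand): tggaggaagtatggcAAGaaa

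Upstream DNA was searched for W-boxes because these genes are often targets of their own family. In the 250 bases before the annotated start (TAIR10.1, RefSeq), TTGACC or TTGACT was found on either strand in 20 of the 52 genes (38.5%), against 28.4% of 27443 protein-coding genes. More than 1 match stood in 10 of the 52 (19.2%) and in 6.18% of all genes. Some windows run into a neighbouring annotated gene. The only match of WRKY25 and that of WRKY26 lie at least partly in such a gene, as does 1 of the 2 matches of WRKY45. The stretches below belong to genes described in the results, with W-boxes in capitals. A match on the other strand reads AGTCAA or GGTCAA, and matches do not overlap. WRKY31 is shown because it was called higher in every mutant. WRKY70 had the largest called log2 fall in pkl. WRKY30 and WRKY62, also of group III, and WRKY33 of group I hold several matches.
WRKY70 (chr3:20910624-20910873, minus strand): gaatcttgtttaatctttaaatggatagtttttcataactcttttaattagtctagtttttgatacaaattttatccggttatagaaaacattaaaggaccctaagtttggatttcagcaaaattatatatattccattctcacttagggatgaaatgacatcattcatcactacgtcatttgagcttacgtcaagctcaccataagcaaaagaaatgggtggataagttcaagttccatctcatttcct
WRKY62 (chr5:352096-352345, minus strand): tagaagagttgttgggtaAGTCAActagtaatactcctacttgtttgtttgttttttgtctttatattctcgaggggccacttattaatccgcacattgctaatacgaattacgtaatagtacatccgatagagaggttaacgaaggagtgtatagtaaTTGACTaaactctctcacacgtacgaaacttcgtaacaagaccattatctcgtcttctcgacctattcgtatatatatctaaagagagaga
WRKY30 (chr5:8154711-8154960, minus strand): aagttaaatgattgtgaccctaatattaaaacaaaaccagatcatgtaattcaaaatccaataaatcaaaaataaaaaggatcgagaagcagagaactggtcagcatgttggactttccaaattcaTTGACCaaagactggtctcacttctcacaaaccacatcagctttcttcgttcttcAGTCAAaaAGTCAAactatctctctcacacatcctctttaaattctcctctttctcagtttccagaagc
WRKY33 (chr2:16107985-16108234, plus strand): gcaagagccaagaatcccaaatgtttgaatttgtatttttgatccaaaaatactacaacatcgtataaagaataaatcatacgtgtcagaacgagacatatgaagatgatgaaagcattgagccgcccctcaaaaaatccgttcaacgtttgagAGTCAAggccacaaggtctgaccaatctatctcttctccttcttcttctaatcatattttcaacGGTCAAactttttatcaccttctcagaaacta
WRKY31 (chr4:11694591-11694840, minus strand): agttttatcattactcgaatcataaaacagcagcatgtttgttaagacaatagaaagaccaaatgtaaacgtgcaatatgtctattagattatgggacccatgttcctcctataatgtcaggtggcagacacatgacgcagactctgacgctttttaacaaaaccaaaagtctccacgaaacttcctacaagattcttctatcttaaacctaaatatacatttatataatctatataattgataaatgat

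In these 250 bases WRKY30 had 3 matches, WRKY62 and WRKY33 had 2 each, and WRKY70 and WRKY31 had 0. WRKY38 and WRKY54, which were lower in the same mutants as WRKY70, also had 0. A match is a run of letters and not a measured binding site.

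Expression is given as the authors' FPKM, a fragment count divided by transcript length and library size, with 1 value per genotype. No value therefore carries a replicate error, and the depth behind it is unknown. A gene is called, or said to have risen, fallen or changed, where the authors' Cuffdiff test gave a q under 0.05, a q being a p-value adjusted for multiple tests. The smallest q in the tables is 0.000661. The 3 comparisons share the wild-type values, so their agreement is not independent, and no test of 1 mutant against another was run. The mutated genes were checked first: PKL dropped from 20.8 FPKM to 6.83 in pkl, LHP1 from 12.1 to a listed 0 in lhp1, and CLF was at 8.37 in wild type against 0.264 in clf; PKL and LHP1 were called lower, and CLF had a q of 0.0520 in the authors' deposited table.

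Most of the 52 genes were expressed in wild-type seedlings. Levels ran from 118 FPKM in the shared locus of WRKY1 to 0.239 for WRKY41, with a median of 9.66. They reached 10 FPKM in 26 genes, lay between 1 and 10 in 21 and stayed under 1 in 5. The 10 highest were WRKY1, WRKY25, WRKY15, WRKY70, WRKY45, WRKY26, WRKY18, WRKY11, WRKY65 and WRKY32, of which 5 share their locus, so that their own level cannot be separated. Among those with their own locus WRKY15, a calmodulin-binding group IId factor of growth and osmotic stress, stood highest at 88.0 FPKM. The salicylic acid regulator WRKY70 followed at 66.8. The family median was 9.26 in pkl, 8.66 in clf and 11.0 in lhp1.

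**Figure D1:**
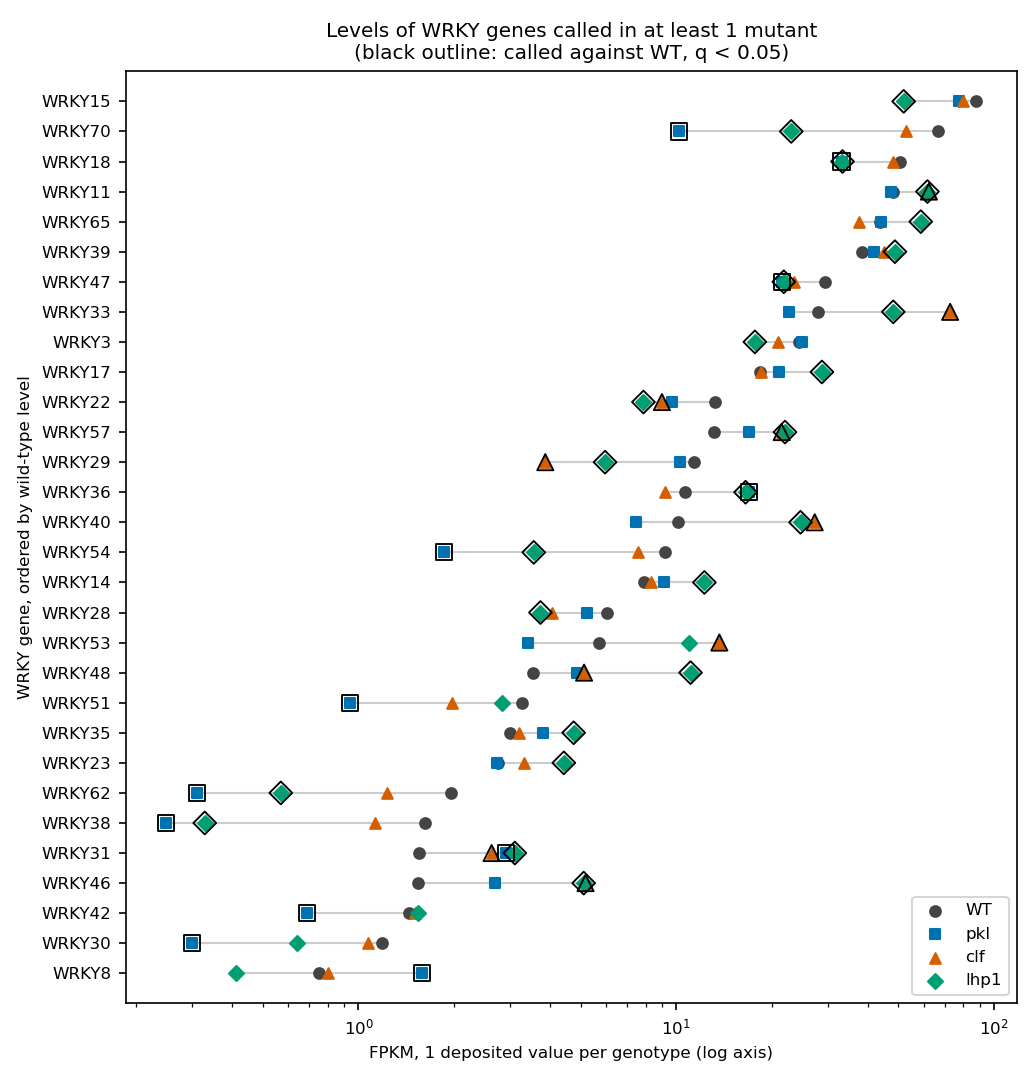
FPKM on a log axis (1 deposited value per genotype, no error bars) of the 30 WRKY genes with their own locus that were called in at least 1 mutant, ordered by wild-type level; symbols give the genotype and black outlines the calls at q under 0.05. WRKY70 falls from 66.8 FPKM in wild type to 10.2 in pkl, while WRKY33 reaches 72.7 in clf.

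In pkl the called WRKY genes were mostly lower, in clf mostly higher, and in lhp1 they went in either direction. Of 45 tested genes with their own locus, 9 fell and 3 rose in pkl. Over all 17344 tested single-gene loci 14.0% were called in pkl, 7.03% lower and 7.00% higher, against 20% lower and 6.67% higher of the WRKY genes, so the share of rises was near the background. In clf 8 rose (17.8%) and 2 fell (4.44%), against 7.48% and 5.49% of all tested loci and 13.0% in either direction. The share of falls was again near the background. In lhp1 14 rose (31.1%) and 11 fell (24.4%), where 22.3% of all loci were called, 11.6% higher and 10.7% lower. These WRKY genes were chosen with earlier results of these data known, so their shares need not hold for the whole family. Among WRKY genes not chosen, 0 of 11 tested were called in pkl, 1 of 12 in clf and 2 of 13 in lhp1.

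The counts were similar for the 40 tested WRKY genes whose mean over the genotypes reached 1 FPKM. In pkl 7 fell and 2 rose, against 7.24% lower, 7.04% higher and 14.3% in either direction of all tested loci at that level. In clf 8 rose and 2 fell, against 7.66%, 5.71% and 13.4%. In lhp1 14 rose and 10 fell, against 11.8%, 11.4% and 23.2%.

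Stricter rules left fewer genes, in the family and among all loci. With q under 0.01, 2 of the 45 (4.44%) were higher in pkl and 5 (11.1%) lower, against 4.42% and 4.60% of all tested loci. In clf 4 (8.89%) were higher and 2 (4.44%) lower, against 5.30% and 3.40%, and in lhp1 9 (20%) went each way, against 8.26% and 7.71%. Where a change of at least 2-fold was required beside q under 0.05, 1 gene (2.22%) was higher and 7 (15.6%) lower in pkl, against 2.08% and 2.43%. In clf 4 (8.89%) were higher, against 2.69%, and 1 of 45 was lower, against 226 of 17345 loci. In lhp1 4 (8.89%) went each way, against 4.40% and 3.43%.

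**Figure D2:**
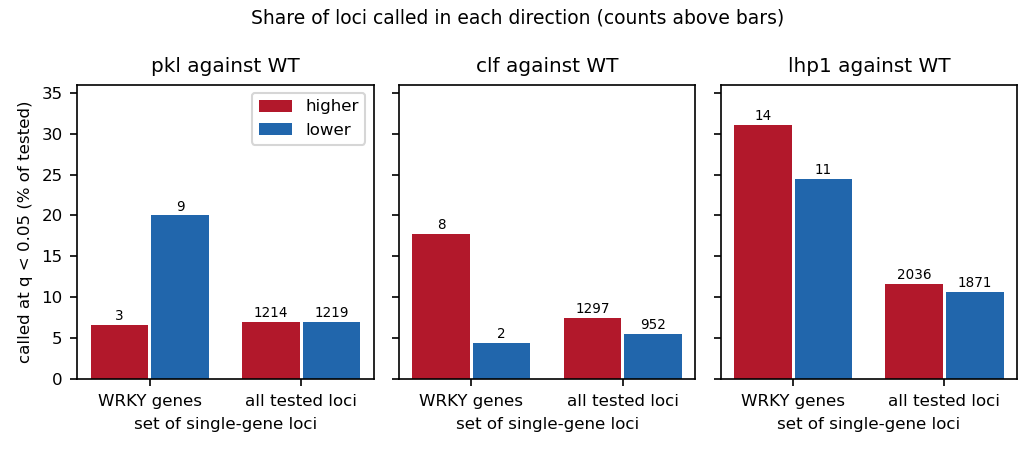
Share (%) of tested single-gene loci called at q under 0.05 as higher or lower in each mutant, for the WRKY genes (left pair of bars) and all tested loci (right pair), with counts above the bars. In lhp1 25 of 45 WRKY genes were called. The WRKY genes were chosen with earlier results of these data known.

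Median changes were small. On the log2((FPKM + 1)/(FPKM + 1)) scale the 45 genes had a median of -0.18 in pkl, -0.08 in clf and 0.11 in lhp1, where all tested single-gene loci had 0.01, -0.004 and 0.03. The median absolute change on this scale was 0.34, 0.27 and 0.44 for the WRKY genes, and 0.16, 0.15 and 0.21 for all tested loci. Of the 45 tested genes, 30 (66.7%) were called in at least 1 mutant, against 31.5% of 17789 single-gene loci tested in at least 1 comparison. WRKY41, also among those with their own locus, was left out because the authors' table marks it as not tested.

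**Figure D3:**
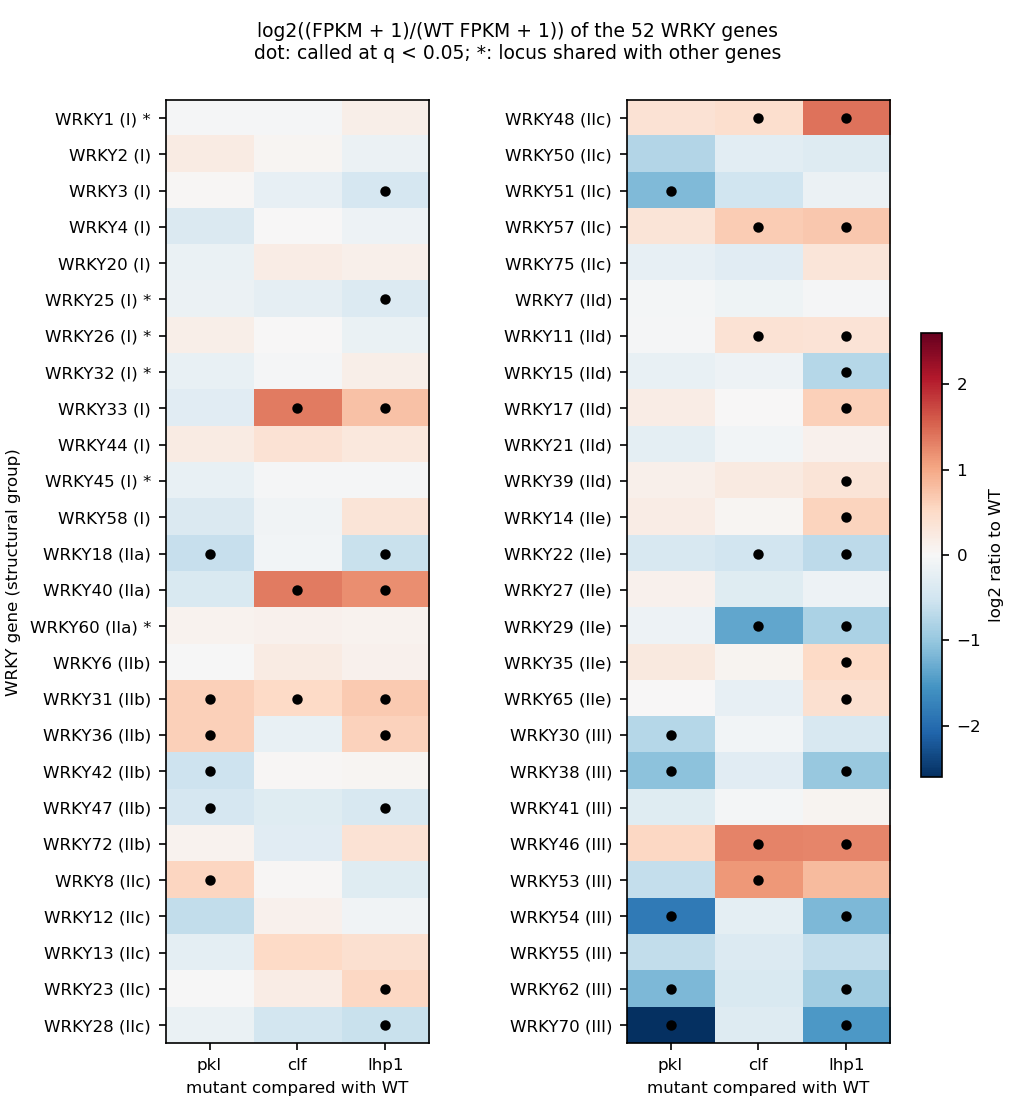
Colour gives the log2((FPKM + 1)/(FPKM + 1)) of each mutant against wild type for all 52 WRKY genes, ordered by structural group; dots mark calls at q under 0.05 and asterisks the shared loci. WRKY45 is placed under group I by its annotation, although it has a single domain. Among the blue group III genes in pkl and lhp1 WRKY70 is the strongest. WRKY46, also of group III, is red in every mutant, and WRKY33, WRKY40 and WRKY53 are red in clf and lhp1.

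Group III, which holds salicylic acid regulators, held the largest called falls of the family in pkl as log2 ratios without a pseudocount. With a pseudocount of 1, WRKY51 of group IIc (-1.14) fell more than WRKY38 (-1.07) and WRKY30 (-0.75). It fell less than WRKY70 (-2.60), WRKY54 (-1.84) and WRKY62 (-1.17). WRKY70 (AT3G56400) activates salicylic acid responses and represses jasmonate responses, and stood at 66.8 FPKM in wild type, 10.2 in pkl, 52.7 in clf and 23 in lhp1. The locus lies at chromosome 3, 20908928 to 20910481 (TAIR10). The pkl and lhp1 values were the low ones. The log2 fold change was -2.71 in pkl and -1.54 in lhp1, each with q = 0.000661 in the authors' deposited table. In clf it was -0.34 and was not called, with q = 0.0596 in that table.

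The closest relative, WRKY54 (AT2G40750), shares functions with WRKY70 in salicylic acid feedback and senescence. WRKY54 stood at 9.23 FPKM in wild type, 1.86 in pkl, 7.55 in clf and 3.56 in lhp1. This is the same order as for WRKY70, with log2 fold changes of -2.31 in pkl and -1.37 in lhp1, both called. Its locus is at chromosome 2, 17000454 to 17002468. The neighbouring gene WRKY55 (AT2G40740) also stood lowest in pkl and lhp1 (0.680 FPKM in wild type, 0.0745, 0.317 and 0.0933 in pkl, clf and lhp1). At this level no call was made: the log2 difference of -3.19 in pkl has q = 0.516 in the authors' deposited table. Its p-value implies a standard error of 2.69.

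WRKY38 (AT5G22570) and WRKY62 (AT5G01900) are a related pair, induced by salicylic acid, that dampen basal defence. WRKY38 stood at 1.61 FPKM in wild type, 0.249 in pkl, 1.13 in clf and 0.328 in lhp1. WRKY62 stood at 1.95, 0.310, 1.23 and 0.570 in the same order. Each was called lower in pkl and in lhp1 and in neither case in clf. The log2 fold changes were -2.70 and -2.30 for WRKY38 and -2.65 and -1.78 for WRKY62. All mutant values here are low, and the implied standard errors of WRKY38 were 0.86 in pkl and 0.69 in lhp1.

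WRKY46 (AT2G46400) and WRKY53 (AT4G23810) were not called lower in any mutant. WRKY46, which supports basal resistance together with WRKY70 and WRKY53, stood at 1.54 FPKM in wild type, 2.70 in pkl, 5.18 in clf and 5.11 in lhp1. It rose by 1.75 on the log2 scale in clf and 1.73 in lhp1, while its log2 difference of 0.81 in pkl, not called, had q = 0.0516 in the authors' deposited table. WRKY53, a regulator of leaf senescence, stood at 5.72, 3.40, 13.7 and 10.9 FPKM in wild type, pkl, clf and lhp1. Its log2 difference of 1.25 was called in clf alone, with implied standard errors of 0.41 in clf and 0.45 in lhp1, where the difference was 0.93. WRKY30 (AT5G24110), of oxidative stress and senescence, fell in pkl, from 1.19 to 0.300 FPKM. It stood at 1.07 in clf and 0.641 in lhp1 without a call. WRKY41 (AT4G11070), at most 0.296 FPKM and listed at 0 in pkl, was not tested.

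Counted over the 8 tested group III genes, 5 fell and 0 rose in pkl, 2 rose and 0 fell in clf, and 1 rose and 4 fell in lhp1. Beside this, 7.03% of all tested single-gene loci were lower and 7.00% higher in pkl. The shares were 5.49% and 7.48% in clf, and 10.7% and 11.6% in lhp1. The median log2((FPKM + 1)/(FPKM + 1)) of the group was -0.91 in pkl, -0.28 in clf and -0.77 in lhp1. These are bulk seedlings, in which fewer cells of a type and less RNA per cell cannot be told apart.

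Group IIa holds WRKY18 (AT4G31800), WRKY40 (AT1G80840) and WRKY60 (AT2G25000), interacting and partly redundant factors induced by pathogens, which repress defence and abscisic acid genes. WRKY18 stood at 50.7 FPKM in wild type, 33.1 in pkl, 48.0 in clf and 33.3 in lhp1, and fell in pkl by 0.61 and in lhp1 by 0.60 on the log2 scale. WRKY40 stood at 10.1, 7.45, 27.3 and 24.6. It rose by 1.43 on the log2 scale in clf and 1.28 in lhp1, so that WRKY18 and WRKY40 were called in opposite directions in lhp1. The locus of WRKY60, shared with AT2G25010, kept within 26.6 to 28.9 FPKM and was called in no mutant.

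Group I genes with their own locus had calls in clf and lhp1 only. With 7 tested genes and 14.0% of all tested single-gene loci called in pkl, the lack of a pkl call says little about the group. WRKY33 (AT2G38470), a target of the MAP kinases MPK3 and MPK6 that drives synthesis of the phytoalexin camalexin, stood at 28.0 FPKM in wild type, 22.6 in pkl, 72.7 in clf and 48.2 in lhp1. It rose in clf by 1.38 and in lhp1 by 0.78 on the log2 scale. WRKY3 (AT2G03340), which with WRKY4 (AT1G13960) supports resistance to necrotrophic fungi, stood at 24.3, 24.9, 20.8 and 17.7 and fell in lhp1 by 0.46. WRKY4 was at 15.7 FPKM in pkl against 20.8 in wild type, with q = 0.0661 in the authors' deposited table.

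Of the 7 tested group I genes, none was called in pkl by Cuffdiff, where 3 had an unadjusted p under 0.05. In clf 1 rose, and in lhp1 1 rose and 1 fell. Over all tested single-gene loci 14.0%, 13.0% and 22.3% were called in pkl, clf and lhp1. WRKY44 (AT2G37260), known as TTG2, acts in trichomes and the seed coat and stood at 1.59, 1.99, 2.35 and 2.11 FPKM, uncalled. WRKY2 (AT5G56270), WRKY20 (AT4G26640) and WRKY58 (AT3G01080) were not called either; WRKY58 stayed under 1 FPKM in all genotypes. The shared locus of the heat-tolerance gene WRKY25 (AT2G30250) was at 90.4 FPKM in wild type and 70.2 in lhp1, where it was called lower, but the signal cannot be assigned to WRKY25 rather than its neighbour AT2G30260. The loci of WRKY1 (AT2G04880), WRKY26 (AT5G07100) and WRKY32 (AT4G30935) were not called. Neither was that of WRKY45 (AT3G01970), which is listed here by its annotation only, since it has 1 heptapeptide and not a pair of domains.

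Group IIb held the gene called higher in every mutant. WRKY31 (AT4G22070) stood at 1.55 FPKM in wild type, 2.90 in pkl, 2.62 in clf and 3.10 in lhp1. The log2 fold changes were 0.91, 0.76 and 1.00, with q = 0.00227, 0.0132 and 0.000661 in the authors' deposited table. Wild type was the low value, and the implied standard errors of the fold changes were 0.24 to 0.25. The locus is at chromosome 4, 11691169 to 11694516.

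The other IIb genes differed in direction. WRKY36 (AT1G69810), which interacts with the UV-B receptor UVR8, stood at 10.6, 17.0, 9.19 and 16.5 FPKM in wild type, pkl, clf and lhp1 and rose in pkl by 0.68 and in lhp1 by 0.64 on the log2 scale. WRKY47 (AT4G01720) fell slightly in the same mutants, from 29.3 to 21.5 in pkl and 21.8 in lhp1. WRKY42 (AT4G04450), a regulator of phosphate transport, stood at 1.45 FPKM in wild type, 0.687 in pkl, 1.51 in clf and 1.54 in lhp1 and fell in pkl. WRKY6 (AT1G62300), of senescence and phosphate supply, kept within 24.9 to 29.2 FPKM without a call. WRKY72 (AT5G15130), of basal immunity, was highest in lhp1 at 5.04 FPKM against 3.62, with q = 0.0691 in the authors' deposited table. Of 6 tested IIb genes, 2 rose and 2 fell in pkl, 1 rose in clf, and 2 rose and 1 fell in lhp1. Over all tested single-gene loci 14.0%, 13.0% and 22.3% were called in either direction in pkl, clf and lhp1.

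In group IIc the largest called rise was that of WRKY48 (AT5G49520), a repressor of basal defence. It stood at 3.54 FPKM in wild type, 4.87 in pkl, 5.13 in clf and 11.1 in lhp1, the last value standing apart. The log2 fold change was 1.65 in lhp1 and 0.53 in clf, both called; the clf call was lost when p was adjusted within that comparison alone (Benjamini-Hochberg). WRKY57 (AT1G69310), of drought tolerance and jasmonate-induced senescence, stood at 13.2, 17.0, 21.5 and 22.0. It rose by 0.70 on the log2 scale in clf and 0.74 in lhp1.

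WRKY50 (AT5G26170) and WRKY51 (AT5G64810), the pair with the lysine codon shown above, take part in the repression of jasmonate signalling by salicylic acid. WRKY51 stood at 3.28 FPKM in wild type, 0.941 in pkl, 1.97 in clf and 2.83 in lhp1 and fell in pkl by 1.80 on the log2 scale. WRKY50 stood at 1.89, 0.696, 1.41 and 1.28, lowest in pkl as well, but its implied standard error was 1.03 there and it was not called.

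WRKY8 (AT5G46350), of salt and virus responses, rose in pkl from 0.754 to 1.59 FPKM with q = 0.0448 in the authors' deposited table. It was not called in pkl when p was adjusted within that comparison alone (Benjamini-Hochberg). It stood at 0.802 in clf and 0.413 in lhp1. WRKY23 (AT2G47260), which acts in auxin transport, rose in lhp1 from 2.76 to 4.43. WRKY28 (AT4G18170), an activator of the salicylic acid synthesis gene ICS1, stood at 6.05, 5.23, 4.06 and 3.74 FPKM and fell in lhp1. In clf its q was 0.0520 in the authors' deposited table.

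WRKY12 (AT2G44745) and WRKY13 (AT4G39410), known for secondary walls and for opposite effects on flowering time, were not called. WRKY12 was at 0.979 FPKM in pkl against 2.09 in wild type, a difference whose q was 0.0576 in the authors' deposited table. WRKY13 stood at 0.902 in wild type, 0.596 in pkl, 1.73 in clf and 1.53 in lhp1. WRKY75 (AT5G13080), of phosphate starvation and senescence, lay between 6.73 and 10.8 without a call. Of 10 tested IIc genes 1 rose and 1 fell in pkl, 2 rose in clf, and 3 rose and 1 fell in lhp1. The pkl counts were near the shares over all tested single-gene loci, 7.00% higher and 7.03% lower. In clf 7.48% of these loci were higher and 5.49% lower, and in lhp1 11.6% and 10.7%.

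Group IId, the calmodulin-binding subgroup, and group IIe had most of their calls in lhp1. This mutant had the most calls in the whole family as well. Among all tested single-gene loci 22.3% were called in lhp1, 14.0% in pkl and 13.0% in clf. WRKY15 (AT2G23320) stood at 88.0 FPKM in wild type, 77.4 in pkl, 79.8 in clf and 51.9 in lhp1, and fell in lhp1 by 0.76 on the log2 scale. WRKY11 (AT4G31550) and WRKY17 (AT2G24570), a related pair that limits basal resistance, rose there: WRKY11 from 48.1 to 61.7 and WRKY17 from 18.4 to 28.7. WRKY11 also rose in clf, to 62.4, whereas WRKY17 stood at 18.5 in clf. WRKY39 (AT3G04670), of heat responses, rose in lhp1 from 38.3 to 48.7. WRKY7 (AT4G24240) and WRKY21 (AT2G30590) were not called. Of 6 tested IId genes none was called in pkl by Cuffdiff, where 1 had an unadjusted p under 0.05. In clf 1 rose, and in lhp1 3 rose and 1 fell.

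WRKY22 (AT4G01250) and WRKY29 (AT4G23550) of group IIe act at the end of the MAP kinase cascade that responds to bacterial flagellin, and they fell in clf and lhp1. WRKY29 stood at 11.3 FPKM in wild type, 10.3 in pkl, 3.87 in clf and 5.97 in lhp1, with log2 fold changes of -1.55 in clf and -0.93 in lhp1. WRKY22 stood at 13.2, 9.70, 9.01 and 7.88, lower in every mutant. Its log2 fold changes were -0.45 in pkl, uncalled (the authors' deposited table gives q = 0.0514), and -0.55 and -0.74 in clf and lhp1, both called.

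The remaining IIe genes were called in lhp1 or not at all. WRKY14 (AT1G30650) rose in lhp1 from 7.93 to 12.3 FPKM, WRKY35 (AT2G34830) from 3 to 4.75 and WRKY65 (AT1G29280) from 43.8 to 58.8. WRKY27 (AT5G52830), which affects bacterial wilt symptoms, lay between 5.57 and 7.89 and was not called. In pkl none of the 6 was called by Cuffdiff, 1 having an unadjusted p under 0.05. In clf 2 fell, and in lhp1 3 rose and 2 fell. Over all tested single-gene loci 14.0%, 13.0% and 22.3% were called in pkl, clf and lhp1.

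Some loci above need care. The merged region of WRKY33 in the tables also holds AT2G38480, that of WRKY40 holds AT1G80850, and that of WRKY53 holds AT4G23790 and AT4G23800, which the authors listed at separate FPKM values. These neighbours were called in no mutant. Their levels ran from 7.42 to 11.1 FPKM for AT2G38480, from 7.48 to 9.11 for AT1G80850 and from 52.7 to 65.5 for the pair beside WRKY53. How reads were divided is not stated. The same holds for WRKY2, WRKY3, WRKY4, WRKY41 and WRKY50, 8 genes in all. Without these 8, 5 genes rose in clf. Among the related genes below, the regions of SARD1, FRK1 and SIB2 hold neighbours in the same way, as do those of PKL, CLF and LHP1. The same is true of SEP1, of the root markers PYK10, CASP1 and EXPA7, and of some uncalled genes in the lists.

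Genes that act upstream, beside or downstream of WRKY factors were followed in 6 lists, chosen with earlier results of these data known. For comparison with their counts, 14.0% of all tested single-gene loci were called in pkl, 13.0% in clf and 22.3% in lhp1. By direction, 7.03% were lower and 7.00% higher in pkl, 5.49% and 7.48% in clf, and 10.7% and 11.6% in lhp1. Among salicylic acid genes, 9 of 14 tested fell and none rose in pkl, where the median log2((FPKM + 1)/(FPKM + 1)) was -0.49. In clf 4 fell and 2 rose, with a median of -0.08, and in lhp1 7 fell and none rose, with a median of -0.37. The isochorismate synthase gene ICS1 stood at 8.47 FPKM in wild type, 6.05 in pkl, 4.28 in clf and 4.38 in lhp1 and fell in all 3. The response gene PR1 stood at 47.5, 3.50, 39.8 and 24.6 and fell in pkl and lhp1, the mutants in which WRKY70 fell. CBP60G, for an activator of ICS1, stood at 6.93, 3.53, 12.3 and 5.74, falling in pkl and rising in clf. SARD1, of the same family, stood at 7.79, 2.17, 7.16 and 2.30 and fell in pkl and lhp1.

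The list also holds a pipecolic acid gene and further response genes. ALD1, needed for pipecolic acid, was at 2.50 FPKM in wild type and at 0.388, 0.307 and 0.184 in pkl, clf and lhp1, lower in all 3. PR5 fell in lhp1 from 38.4 to 14.3, and PR2 rose in clf from 3.37 to 5.31.

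**Figure D4:**
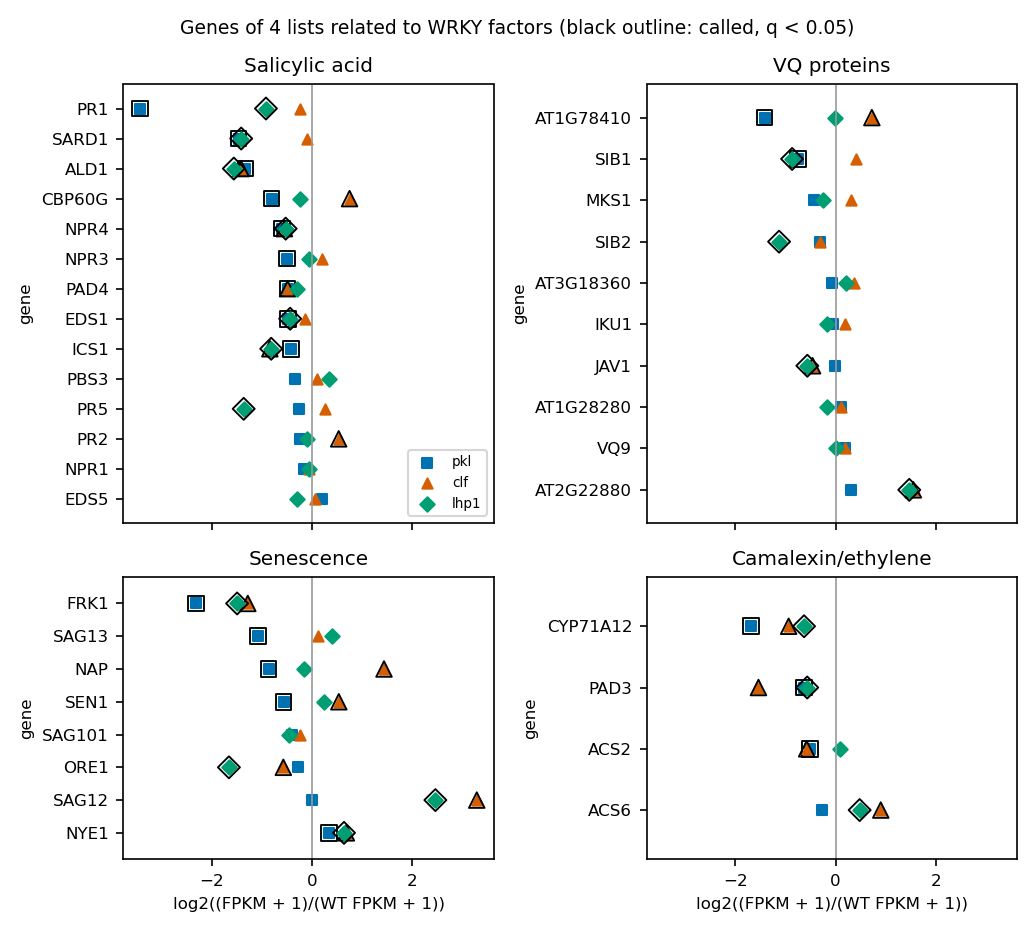
Each point is the log2((FPKM + 1)/(FPKM + 1)) of 1 gene in 1 mutant against wild type, for the salicylic acid, VQ protein, senescence and camalexin/ethylene lists; black outlines mark calls at q under 0.05. PR1 in pkl lies farthest left, and SAG12, listed at 0 in wild type and pkl, lies right in clf and lhp1.

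Targets of WRKY33 did not all move with WRKY33. PAD3, for the last step of camalexin synthesis, stood at 22.2 FPKM in wild type, 14.0 in pkl, 6.98 in clf and 14.7 in lhp1 and fell in all 3. CYP71A12, of the same pathway, stood at 13.4, 3.50, 6.55 and 8.34 and fell in all 3 as well. In clf WRKY33 was at its highest level and PAD3 at its lowest. ACS6, for an ethylene synthesis enzyme, stood at 11.4, 9.23, 22.2 and 16.3 FPKM and rose in clf and lhp1, as WRKY33 did. ACS2 fell in pkl and clf, from 1.93 to 1.07 and 0.968. CYP71A13, in a shared locus outside the counts, was at 3.66, 2.13, 0.771 and 0.774. Of 4 tested genes 3 fell in pkl, 3 fell and 1 rose in clf, and 2 fell and 1 rose in lhp1, with medians of -0.57, -0.76 and -0.24 on the log2((FPKM + 1)/(FPKM + 1)) scale.

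The senescence list includes FRK1, a flagellin-induced receptor kinase gene downstream of WRKY22 and WRKY29 and a WRKY6 target. FRK1 stood at 7.31 FPKM in wild type, 0.663 in pkl, 2.41 in clf and 1.94 in lhp1 and fell in all 3. SAG12, the protease gene that marks late senescence, was listed at 0 in wild type and pkl and rose to 8.77 in clf and 4.51 in lhp1. NAP, for a senescence NAC factor, stood at 13.3, 6.80, 37.6 and 11.8, falling in pkl and rising in clf. The NAC gene ORE1 stood at 41.1 FPKM in wild type, 33.5 in pkl, 27.3 in clf and 12.3 in lhp1, lower with a call in clf and lhp1.

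SAG13 and SEN1 are further senescence-associated genes. SAG13 fell in pkl from 6.18 to 2.39. SEN1 fell in pkl from 200.02 to 134 and rose in clf to 290. NYE1, a chlorophyll breakdown gene, rose from 18 to 23.1, 29.6 and 28.6 in pkl, clf and lhp1. In pkl its q was 0.04998 in the authors' deposited table, and its p was larger than that of WRKY8. The pkl call is therefore lost, as for WRKY8, when p is adjusted within that comparison alone (Benjamini-Hochberg). Of 7 tested genes 1 rose and 4 fell in pkl, and of 8 tested 4 rose and 2 fell in clf and 2 rose and 2 fell in lhp1. The medians were -0.57, 0.32 and 0.04 on the log2((FPKM + 1)/(FPKM + 1)) scale.

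VQ proteins bind WRKY domains and alter their activity. SIB1, a partner of WRKY33, stood at 16.7 FPKM in wild type, 9.53 in pkl, 22.6 in clf and 8.72 in lhp1 and fell in pkl and lhp1. SIB1, like the floral gene PI below, has 2 rows, of which the one with the higher mean FPKM was used. Its relative SIB2 fell in lhp1 from 36.6 to 16.2. JAV1, a repressor of jasmonate defence, fell from 20.9 to 14.9 in clf and 13.8 in lhp1. AT2G22880, annotated as a VQ motif-containing protein, rose from 11.5 FPKM to 35.8 in clf and 33.7 in lhp1. AT1G78410, annotated likewise, stood at 5.99 FPKM in wild type, 1.62 in pkl, 10.6 in clf and 5.90 in lhp1, falling in pkl and rising in clf. Of 9 tested, 2 fell and none rose in pkl. Of 10, 2 rose and 1 fell in clf, and of 9, 1 rose and 3 fell in lhp1. The medians were -0.06, 0.25 and -0.18 on the log2((FPKM + 1)/(FPKM + 1)) scale.

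The MAP kinase genes upstream of WRKY33, WRKY22 and WRKY29 gave a single call. MKK2 fell in pkl from 39.8 to 31.5 FPKM, 1 of 6 tested with their own locus. In clf and lhp1 none of the 6 was called by Cuffdiff, with 1 and 2 at an unadjusted p under 0.05. The medians on the log2((FPKM + 1)/(FPKM + 1)) scale were -0.23, -0.04 and -0.13. The locus that holds MPK3 and 2 more genes stood at 118, 93.6, 129 and 89.6 FPKM and was called lower in pkl and lhp1.

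Trichome and seed coat partners of WRKY44 gave no Cuffdiff call among 5, 6 and 5 tested in pkl, clf and lhp1, with 0, 2 and 0 at an unadjusted p under 0.05. GL1, for a trichome MYB factor, was at 0.0745 FPKM in lhp1 against 1.55 in wild type, and there q was 0.411 in the authors' deposited table. The medians were -0.02, 0.11 and -0.17 on the log2((FPKM + 1)/(FPKM + 1)) scale.

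Organ markers moved with the genotypes as well. The labelled tissue showed leaf and root markers in every genotype, none of them at 0. All 6 floral organ genes (AG, AP1, AP3, PI, SEP1 and SEP3) rose in clf and lhp1, their summed level being 11.9 FPKM in wild type, 7.86 in pkl, 216 in clf and 359 in lhp1. Of 6 leaf photosynthesis genes 1 fell in pkl, 1 in clf and 3 in lhp1, with sums of 23826, 26279, 19658 and 17429 FPKM. Of 7 root markers 2 rose in pkl, 2 fell in clf, and 1 rose and 1 fell in lhp1, with sums of 2016, 2030, 2138 and 3573. PYK10, for an abundant root beta-glucosidase, makes up most of these sums: the other 6 markers summed to 100.2 FPKM in wild type, 124.5 in pkl, 77.2 in clf and 94.7 in lhp1. Their part in the WRKY results was not tested.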

How the data were processed

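The authors deposited 3 gene-level Cuffdiff tables, 1 per mutant, each with 1 FPKM value per group, a p-value and a q-value. Per the submitters' processing notes, TopHat, Cufflinks 2.1.1 and Cuffdiff 2.1.1 were used on TAIR10; no source used here names the strand setting or the normalisation. The wild-type column is the same in all 3 tables (0 differing loci). The largest called p was 0.00845 in each table.

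Log2 fold changes were computed from the FPKM values, with a pseudocount of 1 for medians. An implied standard error is the absolute log2 fold change over the two-sided normal quantile of the deposited p; it is an upper bound at the smallest p, 5e-05. In pkl its median was 0.65 below 1 FPKM, 0.25 from 1 to 10 and 0.14 from 10 to 100. No test on single libraries could be run.

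Calls needed test status OK and q under 0.05. Named were all called members, and up to 4 genes per list and mutant, called genes with the largest change first; further uncalled members named here were picked after their values were seen. Members and lists were chosen with earlier results of these data known. WRKY31's upstream sequence follows a rule on calls; the other printed sequences were chosen after values were seen, and no protein sequence is printed. All 52 identifiers matched the RefSeq gene table (TAIR10.1), and sequences were read from that genome by its own annotation. Of 28809 single-gene nuclear loci 28808 overlapped that annotation. Code (Python 3.11.15, pandas 2.3.3) was tested on simulated data. Alternatives changed the threshold, adjustment, fold, level filter, scaling, pseudocount and shared loci.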

Additional observations from a re-analysis of the deposited data

How the results depend on the processing

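Dividing by a median ratio, taken over named loci at 1 FPKM or more in both genotypes, shifts every gene alike. The largest shift was 0.0244 (log2), in lhp1. A pseudocount cannot turn a sign, so neither step could change the direction of a call. There were 48 calls of single WRKY genes, that of WRKY25 in its shared locus included. With q under 0.01, 31 of the 48 stayed called and 17 did not. Adjusting p within each mutant (Benjamini-Hochberg) ended 2 calls, WRKY8 in pkl and WRKY48 in clf. Counts that moved by over 1.5 times were these. With q under 0.01, 5 genes were lower in pkl, 4 were higher in clf and 9 were higher in lhp1. At a change of at least 2-fold, 1 was higher in pkl, 4 were higher and 1 lower in clf, and 4 were higher and 4 lower in lhp1. Leaving out genes whose merged region holds a neighbour, chosen after seeing the data, left 5 higher in clf. The median log2 ratio in pkl was -0.1854 with a pseudocount of 0.1, -0.1715 with shared loci, -0.1505 at a mean of at least 1 FPKM and -0.1915 after rescaling. In clf it turned to 0.0048 at a mean of at least 1 FPKM, and was -0.037 with shared loci and -0.0682 after rescaling. In lhp1 it was 0.0884, 0.1257 and 0.0822 with shared loci, with the level filter and after rescaling. The cause was not tested. No paired analysis was possible because the tables hold 1 value per group, which also bars leaving out a replicate. At the largest called p a change has to reach 2.63 implied standard errors, which at the median error in pkl is 1.71 (log2) below 1 FPKM, 0.67 from 1 to 10 and 0.38 from 10 to 100.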

Other observations

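A further 20 WRKY genes outside the 52 were looked up in the same tables. Of these, 18 had their own locus, and 11, 12 and 13 were tested in pkl, clf and lhp1. None was called in pkl by Cuffdiff, where 1 had an unadjusted p under 0.05, 1 rose in clf and 2 rose in lhp1. Of all tested single-gene loci 14.0%, 13.0% and 22.3% were called in pkl, clf and lhp1. WRKY74, of group IId, stood at 0.697 FPKM in wild type, 0.827 in pkl, 1.45 in clf and 1.70 in lhp1 and rose in clf and lhp1. WRKY49, of group IIc, stood at 3.18, 1.89, 4.24 and 7.62 and rose in lhp1. Of the 18, 5 were listed at 0 in wild type.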
